A study of Mus musculus with 52 samples.

Results

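Lymph nodes of mice given CD40 mAb, an antibody that binds the receptor CD40, were compared with lymph nodes of mice given vehicle. The comparison holds 8 of the 52 RNA sequencing libraries of the study, chosen by their titles and by the labelled tissue and treatment: vehicle libraries 1, 2, 4 and 5 (n = 4) and CD40 mAb libraries 2, 3, 4 and 5 (n = 4). Every mouse, treated or not, was hCD40tg, which carries human CD40, and bore a tumor of MC38-CEACAM5, a mouse colon carcinoma line that carries the antigen CEACAM5. A further group received ATOR-4066, an antibody with arms against CD40 and against CEACAM5. Its 5 lymph node libraries shared the estimate of spread, and the CD40 mAb nodes are set against them at the end. The sources used here do not give the dose, the time of sampling, the age of the mice, the node taken, the promoter of the transgene or whether nodes were pooled. Nothing in the labels says that libraries of a group come from separate animals, so p-values measure the spread between these libraries, which may be technical. Levels are given as CPM, each count scaled to the library size, in the order of the library numbers above.

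CD40 is a receptor of the tumor necrosis factor receptor family on B cells, dendritic cells and macrophages. In a lymph node its ligand comes from activated helper T cells, and its engagement recruits TRAF adaptors, activates NF-kappaB, matures dendritic cells and drives B cells to divide and to become germinal center or plasma cells. Interferons, which activated cells of a node can release, act through STAT factors to induce antiviral genes, guanylate-binding proteins and MHC class I presentation.

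The library labelled vehicle 3 was left out because its profile is that of tumor. Glycam1, a mucin of high endothelial venules, was at 0.137 CPM in it and at 160 to 1038 CPM in the 8 libraries used, on library sizes scaled with vehicle 3 included. Across 18763 genes the log2-CPM of vehicle 3 had a Spearman rho of 0.877 to 0.991 (median 0.976) with the 14 tumor libraries and of 0.843 to 0.872 (median 0.847) with the other 13 lymph node libraries, as a description. The log2-CPM of the B cell markers averaged 7.99 to 8.70 in the 8 libraries and that of the T cell markers 6.80 to 7.50, so the defining cells of a lymph node were present in each. Total counts were 46.3 to 60.4 M. The nodes differed in the other tissue they held. Fat cell markers summed to between 1969.8 and 5772 CPM in vehicle and to between 256 and 2103 CPM in CD40 mAb, with the lowest sums in CD40 mAb 3 and 5. Of the 14 fat cell markers 13 had a log2 change below 0, 4 were below every vehicle library (9.45% of all genes), and the median was -1.76. Ucp1 was the fat cell marker at 0 in a library, CD40 mAb 5. All 16 fibroblast and matrix markers had a log2 change below 0 (median -0.51), and 4 were below every vehicle library. The 7 skeletal muscle and skin markers that could be tested were also all below 0 (median -1.22), 2 of them below every vehicle library. Epithelial markers, such as the keratins, Epcam and Cdh1, summed to between 160 and 453 CPM in vehicle and to between 38.3 and 169 CPM in CD40 mAb. They were not taken as a measure of tumor content, which was not tested. With lymph node and tumor libraries scaled together, these markers summed to 18.8 CPM in vehicle 3. On that scale they summed to 6.37 to 364 CPM (median 26.0) in the 14 tumor libraries. In the other 13 lymph node libraries they summed to 28.0 to 449 CPM (median 161). Sinus macrophage markers were lowest in CD40 mAb 3, where their log2-CPM averaged 2.29. CD40 mAb 2 and 4, at 4.33 and 4.42, were also below every vehicle library (4.64 to 4.88), and CD40 mAb 5 was at 4.70. In bulk tissue, fewer cells of a type and less RNA per cell cannot be told apart.

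A small set of genes passed the test. Of 18671 genes tested, 12 were called (0.0643%), with 9 higher in CD40 mAb (0.0482%) and 3 lower (0.0161%). Those that rose include the interferon regulator Irf7, the MHC class I genes H2-Q6, H2-Q7 and H2-T22, the chemokine receptor gene Ccr10 and the transporter gene Slc43a3. Those that fell include Cd209a, a lectin of dendritic cells, and Gadd45g, a stress-response gene. The remaining calls, named after their values were seen, were the light chain segment Igkv2-137, the hormone gene Sct (secretin) and the unnamed transcript Gm19765, which rose, and the receptor gene Mrgprg, which was lower. The threshold cuts through a dense band of genes: 320 had an adjusted p between 0.05 and 0.06, of which 264 had a log2 change above 0 and 56 below, and 4409 had an unadjusted p under 0.05. When the 8 libraries were fitted alone, 441 of 18009 genes (2.45%) were called higher and 367 (2.04%) lower, and all 12 were among them. Over all genes, 1545 (8.27%) had every CD40 mAb library above every vehicle library and 1765 (9.45%) had every CD40 mAb library below, and the median log2 change was -0.02. Lists of genes are read against these shares. Each of the 12 genes kept the sign of its log2 change in all 18 alternatives run. Cd209a ranged from -4.42 to -3.69, H2-Q7 from 0.42 to 0.69 and Irf7 from 0.66 to 1.94. The count of 12, set by a threshold within that dense band, changed when single libraries were left out. It was 0 in edgeR without CD40 mAb 2 or without CD40 mAb 4 (4569 and 4365 at an unadjusted p under 0.05). It was 1 without vehicle 4 or vehicle 5, 2 without vehicle 1, 4 without CD40 mAb 3 and 7 without vehicle 2. It rose to 18 without CD40 mAb 5, 9 of them among the 12, and to 336 without the deepest library, ATOR-4066 5.

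**Figure D1:**
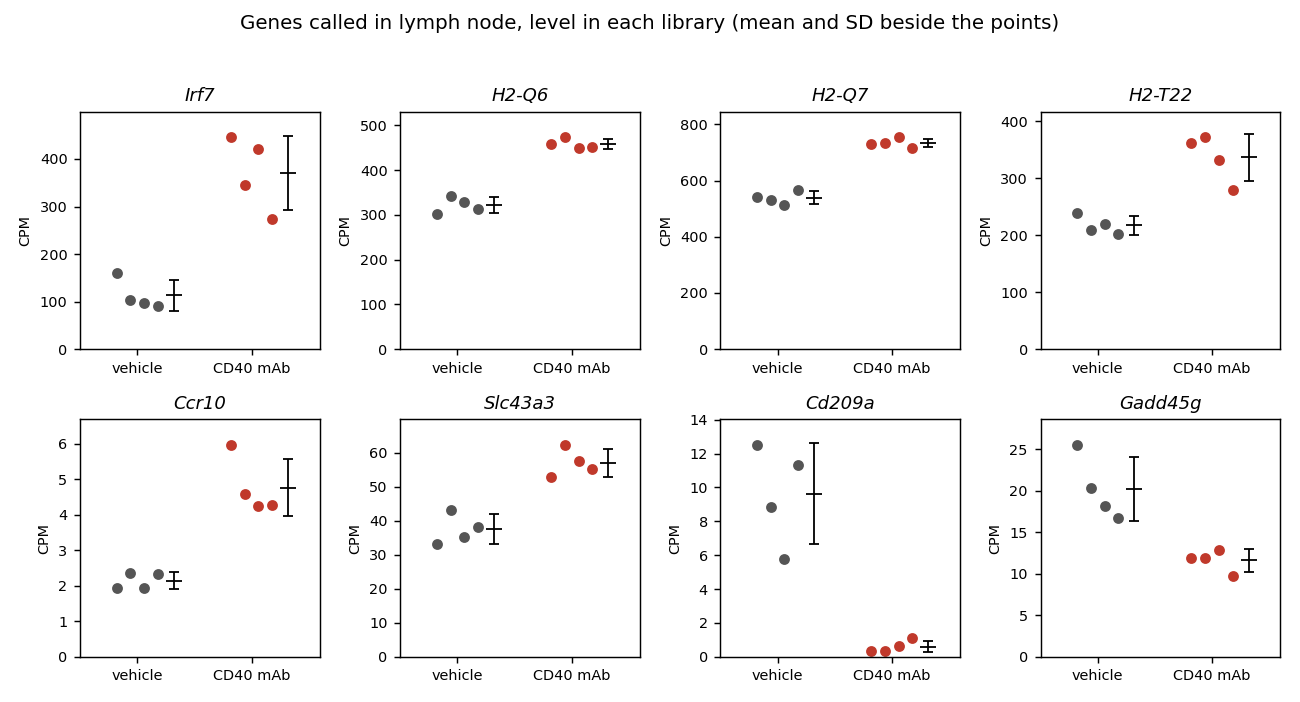
Level in CPM (vertical axes, from 0) of 8 of the 12 genes that passed the test, in each vehicle library (grey points) and each CD40 mAb library (red points), with the mean and SD of the 4 libraries beside them. In each panel the 4 points of one group lie wholly above or below those of the other.

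Type I interferon-induced antiviral genes were higher in the CD40 mAb nodes as a group. Of 25 such genes, all tested, 23 had every CD40 mAb library above every vehicle library, against 8.27% of all genes, and the median log2 change was 1.06 against -0.02 over all genes. Irf7 passed the test, and 21 of the 25 were called higher when the 8 libraries were fitted alone (2.45% of all genes). Irf7, the transcription factor that amplifies interferon production (ENSMUSG00000025498, GRCm38 chromosome 7, 141262706 to 141266481), was at 161, 104, 97.7 and 90.4 CPM in vehicle and at 446, 345, 421 and 274 CPM in CD40 mAb. The lowest CD40 mAb library was above the highest vehicle library. Its mean rose from 113 ± 32.2 to 371 ± 77.9 CPM (SD, n = 4 each), by 1.71 ± 0.25 on the log2 scale (SE, adjusted p = 0.0346).

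Other members lay just past the threshold. Usp18, a brake on interferon receptor signaling, was at 37.7, 28.9, 29.3 and 30.2 CPM in vehicle and at 57.6, 64.2, 72.6 and 56.9 CPM in CD40 mAb (log2 change 0.99 ± 0.17, adjusted p = 0.0512, and 0.016 with the 8 libraries alone). Oas1a, a sensor of double-stranded RNA, was at 38.7, 24.7, 28.0 and 24.8 CPM against 69.7, 72.3, 71.2 and 55.8 CPM (1.21 ± 0.21, adjusted p = 0.0512, and 0.0205). Trim30a, an interferon-induced ubiquitin ligase of the TRIM family, was at 130, 105, 115 and 116 CPM against 202, 234, 223 and 194 CPM (0.88 ± 0.17, adjusted p = 0.054, and 0.0112). In all 3 genes every CD40 mAb library exceeded every vehicle library, and vehicle 1 was the highest vehicle library. The smallest change in the list was that of Siglec1, the sialic acid receptor of sinus macrophages, at 0.47 ± 0.51 (adjusted p = 0.585), with groups that overlap. CD40 mAb 3, low in sinus macrophage markers, had the lowest Siglec1 at 25.3 CPM, and without CD40 mAb 5 the Siglec1 change was -0.05. With the level of fat cell markers as a covariate the median of the list was 1.06, with CD40 mAb 3 and 5 left out it was 1.16, and with the tumor-like vehicle 3 included it was 0.0041.

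The promoters of these genes often carry the interferon-stimulated response element, to which interferon regulatory factors and STAT complexes bind. A core of it, GAAA followed by 2 bases of any kind and by GAAA again, was searched on both strands in windows from 250 bases before to 50 bases after the annotated start (RefSeq, GRCm38.p6), where matches may overlap and 3.44% of 32851 windows hold it. Of the type I interferon-induced genes 17 have a window and 9 hold the core (52.9%), as do 11 of 15 interferon-gamma-induced genes (73.3%), 5 of 17 MHC class I presentation genes (29.4%) and 1 of 23 cell cycle genes (4.35%). A core of the NF-kappaB site, GGG followed by 2 bases of any kind and by TTTCC, is in 1.63% of all windows. It is held by 5 of 13 genes of the NF-kappaB list (38.5%) and by 0 of 17 type I interferon-induced genes. A list gene counts if any of its windows holds the core, while the shares over all windows are of single windows. The windows of Irf7, H2-Q6 and H2-Q7 do not hold the interferon core. The windows of Oas1a, Trim30a and H2-T22, genes of the interferon and MHC class I lists, are shown because they hold the core. The match is in capitals, 5′ to 3′ on the strand of the gene. These windows were chosen after the values and the matches were seen, so they are examples only. In Oas1a a pair of matches overlaps on the strand of the gene, and in Trim30a and H2-T22 the match is on the opposite strand. Another window of Trim30a also holds a match and is not shown.
Oas1a, chr5:120907476-120907775, minus strand: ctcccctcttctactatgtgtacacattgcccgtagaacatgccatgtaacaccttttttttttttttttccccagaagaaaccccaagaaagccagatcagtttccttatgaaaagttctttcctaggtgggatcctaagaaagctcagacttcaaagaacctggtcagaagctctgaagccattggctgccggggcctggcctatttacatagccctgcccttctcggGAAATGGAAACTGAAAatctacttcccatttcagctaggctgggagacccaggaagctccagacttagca
Trim30a, chr7:104465144-104465443, minus strand: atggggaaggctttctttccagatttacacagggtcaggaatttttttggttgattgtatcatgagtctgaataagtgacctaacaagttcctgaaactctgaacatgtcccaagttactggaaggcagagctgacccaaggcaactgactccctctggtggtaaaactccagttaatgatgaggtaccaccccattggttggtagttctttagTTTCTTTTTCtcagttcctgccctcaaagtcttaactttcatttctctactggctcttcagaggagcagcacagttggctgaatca
H2-T22, chr17:36042693-36042992, minus strand: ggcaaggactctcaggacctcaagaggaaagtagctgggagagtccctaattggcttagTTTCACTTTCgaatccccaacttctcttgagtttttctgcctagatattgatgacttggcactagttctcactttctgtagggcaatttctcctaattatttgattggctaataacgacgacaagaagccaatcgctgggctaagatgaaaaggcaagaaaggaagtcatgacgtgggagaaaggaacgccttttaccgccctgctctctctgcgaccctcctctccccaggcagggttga

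MHC class I presentation genes, which encode the molecules that show peptides to CD8 T cells and the machinery that loads them, were higher by a small and even step. All 19 members had a log2 change above 0, 16 had every CD40 mAb library above every vehicle library (8.27% of all genes), and the median was 0.35. Of them 3 nonclassical class I genes passed the test. H2-Q7 (ENSMUSG00000060550, chromosome 17, 35439155 to 35443773) was at 543, 533, 514 and 568 CPM in vehicle and at 730, 735, 755 and 717 CPM in CD40 mAb. It rose by 0.44 ± 0.06 on the log2 scale (adjusted p = 0.0194). H2-Q6 (ENSMUSG00000073409, chromosome 17, 35424850 to 35430055) rose from 321 ± 18 to 458 ± 10.8 CPM (SD, n = 4 each), by 0.51 ± 0.07 (adjusted p = 0.0194). H2-T22 (ENSMUSG00000056116, chromosome 17, 36037128 to 36042747) was at 239, 209, 219 and 201 CPM against 362, 372, 332 and 280 CPM and rose by 0.63 ± 0.10 (adjusted p = 0.0478, and 0.0521 with the fat cell covariate). In all 3 the groups did not overlap, and for H2-Q6 and H2-Q7 the gap between them was wider than the range within either, while for H2-T22 it was narrower than the range of the CD40 mAb libraries. H2-Q4, a neighbour of the same family, had a log2 change of 0.32 ± 0.06 (adjusted p = 0.054), and Nlrc5, the transactivator of class I genes, of 0.46 ± 0.12 (adjusted p = 0.0735). H2-Q6 and H2-Q7 are near-identical copies, and how the deposited counts divide their shared reads makes the value of each copy uncertain. How far reads are shared with the other class I genes was not tested. Over the alternatives run, the median of the list was between 0.31 and 0.41.

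Interferon-gamma-induced genes were mostly higher, with a wider spread between libraries. Of 25, all tested, 0 passed the test, and the median log2 change was 0.71. In 15 every CD40 mAb library was above every vehicle library, against 8.27% of all genes. When the 8 libraries were fitted alone 5 were called higher (2.45% of all genes). Gbp9, a guanylate-binding protein gene, was at 96.7, 87.6, 97.4 and 98.0 CPM in vehicle and at 120, 164, 155 and 134 CPM in CD40 mAb (log2 change 0.59 ± 0.12, adjusted p = 0.054). Gbp6 of the same family had 1.04 ± 0.26 (adjusted p = 0.0666). Cxcl9, a chemokine that attracts activated T cells, was at 112, 156, 134 and 77.4 CPM against 211, 608, 393 and 159 CPM (1.52 ± 0.48, adjusted p = 0.11). The groups did not overlap, but the gap between the highest vehicle library and the lowest CD40 mAb library was narrow, and CD40 mAb 3 was far above the others.

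The interleukin-12 and interferon-gamma axis, through which dendritic cells drive type 1 T cell responses, showed fewer such members. Of 17 genes 0 passed the test, and the median was 0.30, or 0.12 without CD40 mAb 3. In 5 every CD40 mAb library was above every vehicle library, against 8.27% of all genes. Il18, a cytokine that induces interferon-gamma, was at 10.8, 11.5, 12.2 and 10.8 CPM against 24.8, 12.6, 22.8 and 19.4 CPM (0.81 ± 0.17, adjusted p = 0.054). CD40 mAb 3 was the library closest to vehicle for Il18. Il12rb1, a chain of the interleukin-12 receptor, had 0.83 ± 0.27 (adjusted p = 0.112), and Tbx21, the transcription factor of type 1 T cells, had 0.97 ± 0.31 (adjusted p = 0.11). The cytokine genes themselves overlapped between the groups. Ifng was at 2.46, 1.33, 1.03 and 0.641 CPM in vehicle and at 1.36, 4.32, 1.74 and 1.02 CPM in CD40 mAb (0.63 ± 0.62, adjusted p = 0.541). Il12b, a subunit of interleukin-12, was at 4.22, 5.15, 6.29 and 2.81 CPM against 2.76, 7.60, 4.62 and 4.12 CPM (0.05 ± 0.35, adjusted p = 0.946), a change whose sign turned in several alternatives.

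**Figure D2:**
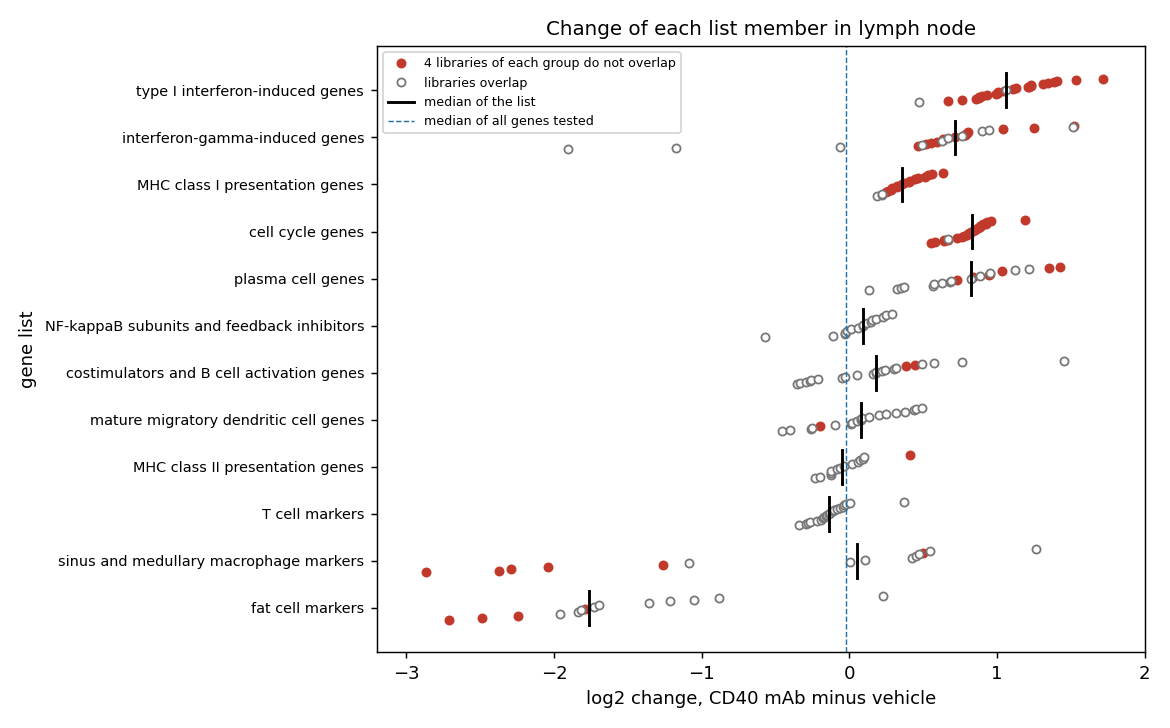
Log2 change of CD40 mAb against vehicle (horizontal axis) for each tested member of 12 gene lists (rows), filled where the 4 libraries of each group do not overlap, with the median of the list (black bar) and of all genes tested (dashed line). Members of the type I interferon, MHC class I and cell cycle lists all lie right of the dashed line, the NF-kappaB and migratory dendritic cell lists lie around it, and 13 of 14 fat cell markers lie left of it.

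Cell cycle genes were higher in the CD40 mAb nodes by a similar step from gene to gene. Of 26 genes, all tested, 0 passed the test over all genes, and the median log2 change was 0.83 within a range of 0.55 to 1.19. In 25 every CD40 mAb library was above every vehicle library, against 8.27% of all genes. When the 8 libraries were fitted alone 20 were called higher (2.45% of all genes). Mki67, a nuclear protein of dividing cells (ENSMUSG00000031004, chromosome 7, 135689784 to 135716361), was at 99.8, 189, 156 and 151 CPM in vehicle and at 238, 300, 258 and 248 CPM in CD40 mAb. The mean was 149 ± 36.9 against 261 ± 27.1 CPM (SD, n = 4 each), and the log2 change 0.81 ± 0.18 (adjusted p = 0.0547, and 0.041 with the 8 libraries alone). Tk1, the thymidine kinase of S phase, was at 25.1, 30.5, 28.9 and 25.8 CPM against 52.5, 63.6, 45 and 44.5 CPM (0.90 ± 0.16, adjusted p = 0.0512). Foxm1, a transcription factor of mitotic genes, had 0.84 ± 0.17 (adjusted p = 0.0536), and Tyms, which makes thymidylate, had 0.82 ± 0.17 (adjusted p = 0.054). Vehicle 1 was the lowest vehicle library and CD40 mAb 3 the highest of all 8 for each of Mki67, Foxm1 and Tyms. Over the alternatives run, the median of the list stayed between 0.49, with the tumor-like vehicle 3 included, and 0.98.

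Plasma cell genes leaned the same way with larger differences between nodes. All 21 members had a log2 change above 0, 0 passed the test, and the median was 0.82. In 7 every CD40 mAb library was above every vehicle library, against 8.27% of all genes. Creld2, a chaperone of the endoplasmic reticulum (ENSMUSG00000023272, chromosome 15, 88819646 to 88826683), was at 52.1, 115, 84.0 and 69.4 CPM in vehicle and at 255, 227, 223 and 154 CPM in CD40 mAb (log2 change 1.42 ± 0.28, adjusted p = 0.0514). Ell2, an elongation factor that favours the secreted form of immunoglobulin, had 1.03 ± 0.25 (adjusted p = 0.0651), and Derl3, a protein of endoplasmic reticulum quality control, had 1.35 ± 0.34 (adjusted p = 0.072). Txndc5, a disulfide isomerase, had 0.69 ± 0.16 (adjusted p = 0.0604) and overlapped between the groups. Prdm1, the master transcription factor of plasma cells, was at 8.84, 18.5, 11.8 and 11.5 CPM against 23.3, 26.5, 24.6 and 15.2 CPM (0.82 ± 0.29, adjusted p = 0.131). CD40 mAb 5 was the lowest CD40 mAb library for Creld2 and Prdm1, and vehicle 1 the lowest vehicle library.

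Immunoglobulin constant genes had a median log2 change of 0.83, with 11 of 12 above 0. None passed the test (0 of 12). In 2, Ighm and Igha, every CD40 mAb library was above every vehicle library, against 8.27% of all genes. Ighm, the heavy chain of IgM, was at 1473, 2487, 2524 and 2138 CPM in vehicle and at 5770, 4718, 4655 and 2555 CPM in CD40 mAb (log2 change 1.04 ± 0.21, adjusted p = 0.054). Igha, the heavy chain of IgA, was at 38.8, 102, 96 and 69.5 CPM against 252, 371, 172 and 151 CPM (1.63 ± 0.52, adjusted p = 0.11). For Ighm the lowest CD40 mAb library was just above the highest vehicle library. The IgG genes varied more within the groups than between them: Ighg1 was at 810 to 4505 CPM in vehicle and at 1222 to 6630 CPM in CD40 mAb (adjusted p = 0.475). Ighg2c was at 139.1 to 3833 CPM in vehicle and at 464 to 5811 CPM in CD40 mAb (adjusted p = 0.533). Igkc, the kappa light chain, was at 1928 to 9650 CPM in vehicle and at 6913 to 14392 CPM in CD40 mAb (0.82 ± 0.47, adjusted p = 0.304).

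A variable segment and a homing receptor gene rose with more even values. Igkv2-137, a kappa light chain variable segment, was at 5.59, 6.29, 6.85 and 5.0 CPM in vehicle and at 33.3, 55.9, 36.7 and 29.1 CPM in CD40 mAb, and it rose by 2.71 ± 0.34 on the log2 scale (adjusted p = 0.0194). Such segments are close relatives of each other, so its reads may be shared with other segments. Ccr10, the receptor that guides antibody-secreting cells and some T cells to mucosa and skin (ENSMUSG00000044052, chromosome 11, 101172997 to 101175443), was at 1.94, 2.35, 1.94 and 2.34 CPM against 5.97, 4.58, 4.25 and 4.27 CPM and rose by 1.15 ± 0.17 (adjusted p = 0.0346). Both genes had CD40 mAb libraries well clear of every vehicle library. Slc43a3, a purine nucleobase transporter (ENSMUSG00000027074, chromosome 2, 84936579 to 84958509), was at 33.1, 43.2, 35.2 and 38.1 CPM against 52.9, 62.2, 57.5 and 55.1 CPM and rose by 0.61 ± 0.09 (adjusted p = 0.0434). Sct was low in both groups, at 0.161 to 0.372 CPM in vehicle and at 1.18 to 3.83 CPM in CD40 mAb, and rose by 3.17 ± 0.47 (adjusted p = 0.0377). Mrgprg was low in vehicle, at 0.806 to 1.17 CPM, and near 0 in CD40 mAb. Among the CD40 mAb libraries it was detected in CD40 mAb 4 alone, at 0.0213 CPM. Its log2 change was -6.99 (adjusted p = 0.0194) and ran from -8.80 to -5.80 over the 18 alternatives.

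Germinal center genes went both ways, with 9 log2 changes above 0 and 11 below. Of 20 genes 0 passed the test, 0 lay above and 3 lay below every vehicle library (9.45% of all genes), and the median log2 change was -0.16, or -0.060 without CD40 mAb 3 and 0.049 with vehicle 3 included. Bcl6, the transcription factor that defines germinal center B cells (ENSMUSG00000022508, chromosome 16, 23965052 to 23988852), was at 52.4, 68.2, 75.0 and 66.6 CPM in vehicle and at 38.3, 47.7, 37.6 and 50.3 CPM in CD40 mAb (-0.59 ± 0.15, adjusted p = 0.0692, and 0.0431 with the 8 libraries alone). Gcsam, a signaling protein of germinal center B cells, was at 13.3, 21.3, 22 and 25.1 CPM against 10.6, 3.55, 9.34 and 13 CPM (-1.16 ± 0.41, adjusted p = 0.135). In both genes the highest CD40 mAb library was below the lowest vehicle library.

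The genes of the CD40 pathway itself differed little. Of the 15 genes of the receptor, its ligand and adaptors 0 passed the test, and the median log2 change was 0.03. Of the 15, 1 (Traf1) lay above and 1 (Cd40lg) below every vehicle library (8.27% and 9.45% of all genes). Mouse Cd40 (ENSMUSG00000017652, chromosome 2, 165055627 to 165072948) was at 61.1, 63.7, 69.3 and 57.7 CPM in vehicle and at 59.0, 89.7, 73.1 and 82.2 CPM in CD40 mAb (0.27 ± 0.13, adjusted p = 0.219), with groups that overlap. The human transgene was not analysed here. Traf1, an adaptor that NF-kappaB induces, was at 112, 105, 111 and 113 CPM against 114, 175, 143 and 159 CPM (0.42 ± 0.13, adjusted p = 0.0956), so CD40 mAb 2 was barely above vehicle. Cd40lg, the ligand on helper T cells, was at 8.80, 7.33, 6.24 and 10.9 CPM against 5.16, 4.74, 5.76 and 6.14 CPM (-0.61 ± 0.18, adjusted p = 0.0994).

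NF-kappaB subunits and the inhibitors they induce lay near the median of all genes. Of 16 genes 0 passed the test, the log2 changes ran from -0.57 to 0.29 and the median was 0.09. Of the 16, 0 lay above or below every vehicle library (8.27% and 9.45% of all genes). Nfkb2, the subunit of the noncanonical pathway, was at 159, 190, 197 and 185 CPM in vehicle and at 174, 253, 198 and 244 CPM in CD40 mAb (0.25 ± 0.12, adjusted p = 0.239). Relb, its partner, was at 97.0 to 114 CPM against 93.7 to 119 CPM (0.01 ± 0.09, adjusted p = 0.966), and Nfkbie, an induced inhibitor, had 0.29 ± 0.13 (adjusted p = 0.211). The 4 CD40 mAb libraries did not act alike: CD40 mAb 3 and 5, the libraries lowest in fat cell markers, were the highest for Cd40, Traf1, Nfkb2 and Nfkbie. With the fat cell covariate the changes of Cd40 and Nfkb2 were 0.14 and 0.11.

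Costimulatory and dendritic cell maturation genes were likewise mixed. Of 22 costimulators and B cell activation genes 0 passed the test, and the median was 0.18. Of them 2, Cd80 and Cd44, lay above every vehicle library (8.27% of all genes). Cd80, a ligand of CD28, was at 8.56, 8.39, 9.39 and 8.40 CPM in vehicle and at 10.2, 12.7, 12.7 and 11.8 CPM in CD40 mAb (0.45 ± 0.17, adjusted p = 0.148, and 0.049 with the 8 libraries alone). Cd44, an adhesion receptor of activated lymphocytes, had 0.39 ± 0.12 (adjusted p = 0.11). Cd86, the other CD28 ligand, was at 65.2 to 77.8 CPM against 62.0 to 103 CPM (0.22 ± 0.14, adjusted p = 0.332), and Fas, a death receptor that CD40 signals induce on B cells, had 0.24 ± 0.11 (adjusted p = 0.198). Of 20 mature migratory dendritic cell genes 0 passed the test, with a median of 0.08. Of the 20, 0 lay above and 1 lay below every vehicle library (8.27% and 9.45% of all genes). Ccr7, the receptor that brings dendritic and T cells into the node, was at 157 to 232 CPM against 180 to 222 CPM (0.08 ± 0.12, adjusted p = 0.681). MHC class II genes had a median of -0.05, with 0 of 14 called and 1 above every vehicle library (8.27% of all genes).

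The gene with the smallest p of all those tested was a dendritic cell lectin. Cd209a, the mouse relative of DC-SIGN carried by type 2 dendritic cells and by monocyte-derived cells (ENSMUSG00000031494, chromosome 8, 3743397 to 3748984), was at 12.5, 8.87, 5.79 and 11.3 CPM in vehicle and at 0.373, 0.355, 0.617 and 1.10 CPM in CD40 mAb. The highest CD40 mAb library was far below the lowest vehicle library. The mean fell from 9.63 ± 2.97 to 0.611 ± 0.346 CPM (SD, n = 4 each), with a log2 change of -3.97 and an SE of 0.41 (adjusted p = 0.00669). It passed the test in 15 of 18 alternatives, with an adjusted p of at most 0.0844, and was at -3.97 with the fat cell covariate (adjusted p = 0.0106). Mgl2, a lectin of the same dendritic cells and of some macrophages, was at 27.0, 18.1, 14.1 and 13.5 CPM against 4.43, 3.26, 6.66 and 2.96 CPM (-2.07 ± 0.35, adjusted p = 0.0512).

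Other dendritic cell markers did not share that size. Of 16 conventional dendritic cell markers 1, Cd209a, passed the test, and the median was -0.07. Of the 16, 5 lay below and 3 above every vehicle library (9.45% and 8.27% of all genes). Sirpa, a receptor of type 2 dendritic cells and macrophages, was at 161, 146, 149 and 157 CPM in vehicle and at 185, 180, 210 and 208 CPM in CD40 mAb (0.35 ± 0.10, adjusted p = 0.0844). Itgax, the integrin CD11c, was at 29.0, 32, 24.5 and 31.5 CPM against 34.9, 58.5, 51.6 and 43.6 CPM (0.69 ± 0.20, adjusted p = 0.0902). For both genes every CD40 mAb library was above every vehicle library. The other members that lay below every vehicle library, named after their values were seen, were Xcr1 and Clec9a, receptors of type 1 dendritic cells, and the lectin gene Clec10a. Xcr1 had a log2 change of -1.19 ± 0.42 (adjusted p = 0.13, and 0.0212 with the 8 libraries alone), Clec10a of -0.80 ± 0.33 (adjusted p = 0.172) and Clec9a of -0.58 ± 0.39 (adjusted p = 0.372).

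Macrophage genes split by gene. Of 14 tested sinus and medullary macrophage markers (2 of 16 were too low to test) 0 passed the test, and the median was 0.05. Of the 14, 5 lay below and 1 above every vehicle library (9.45% and 8.27% of all genes). Cd163, a scavenger receptor, was at 8.11, 6.55, 5.90 and 3.40 CPM in vehicle and at 0.922, 0.296, 1.51 and 0.560 CPM in CD40 mAb (-2.87 ± 0.81, adjusted p = 0.0893, and 0.0326 with the 8 libraries alone). Mrc1, the mannose receptor, was at 52.3, 34.1, 29.4 and 30.9 CPM against 18.6, 6.97, 15.9 and 19.6 CPM (-1.27 ± 0.37, adjusted p = 0.095). Nr1h3, an oxysterol receptor of macrophages, was higher, at 43.5 to 49.5 CPM against 56.9 to 73.0 CPM (0.50 ± 0.09, adjusted p = 0.0512). Of a separate list of 15 macrophage markers 0 passed the test, and 2 lay below and 1 above every vehicle library (9.45% and 8.27% of all genes). In that list 7 log2 changes were above 0 and 8 below, with a median of -0.018. Its member Adgre1, the F4/80 antigen, had -1.16 ± 0.32 (adjusted p = 0.0829). Cd163 and Mrc1 are also carried by macrophages of fat and connective tissue. With the fat cell covariate Cd163 was at -1.92 (adjusted p = 0.0864) and Mrc1 at -1.10 (adjusted p = 0.226).

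The relatives of Cd209a, named after their values were seen, did not all move alike. Cd209d was at 17.8, 13.6, 15.8 and 19.0 CPM in vehicle and at 3.80, 0.164, 4.68 and 7.46 CPM in CD40 mAb (-2.04 ± 0.79, adjusted p = 0.161). Cd209f had -2.37 ± 0.89 (adjusted p = 0.15) and Cd209g had -2.29 ± 0.82 (adjusted p = 0.137), and in all 3 the groups did not overlap. Cd209b, the lectin SIGN-R1 of marginal zone and medullary macrophages, was at 144, 147, 158 and 269 CPM against 201, 10.8, 151 and 356 CPM (0.00 ± 0.75, adjusted p = 0.999). CD40 mAb 3, low in sinus macrophage markers, had the lowest value of each of these 4 genes.

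Monocyte genes also went both ways. Of 12 markers 0 passed the test, and the median was 0.17. Of them 2 lay above and 2 below every vehicle library (8.27% and 9.45% of all genes). Ly6c2, the surface antigen of inflammatory monocytes that T cells and plasma cells also carry and interferon induces, was at 135, 174, 123 and 141 CPM in vehicle and at 449, 403, 498 and 240 CPM in CD40 mAb (1.47 ± 0.28, adjusted p = 0.0512, and 0.0272 with the 8 libraries alone). Plac8, another gene that monocytes share with other leukocytes, had 1.01 ± 0.21 (adjusted p = 0.054). Ccr2, which draws monocytes out of bone marrow and into tissue, was at 72.3, 53.8, 44.2 and 43.1 CPM against 30.7, 38.2, 34.2 and 35.9 CPM (-0.62 ± 0.17, adjusted p = 0.0766). F13a1, a clotting factor subunit of monocytes and tissue macrophages, was at 49.4, 28.6, 30.3 and 13 CPM against 5.02, 1.46, 7.68 and 4.25 CPM (-2.72 ± 0.55, adjusted p = 0.054, and -2.27 with the fat cell covariate). In each of these genes the groups did not overlap.

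**Figure D3:**
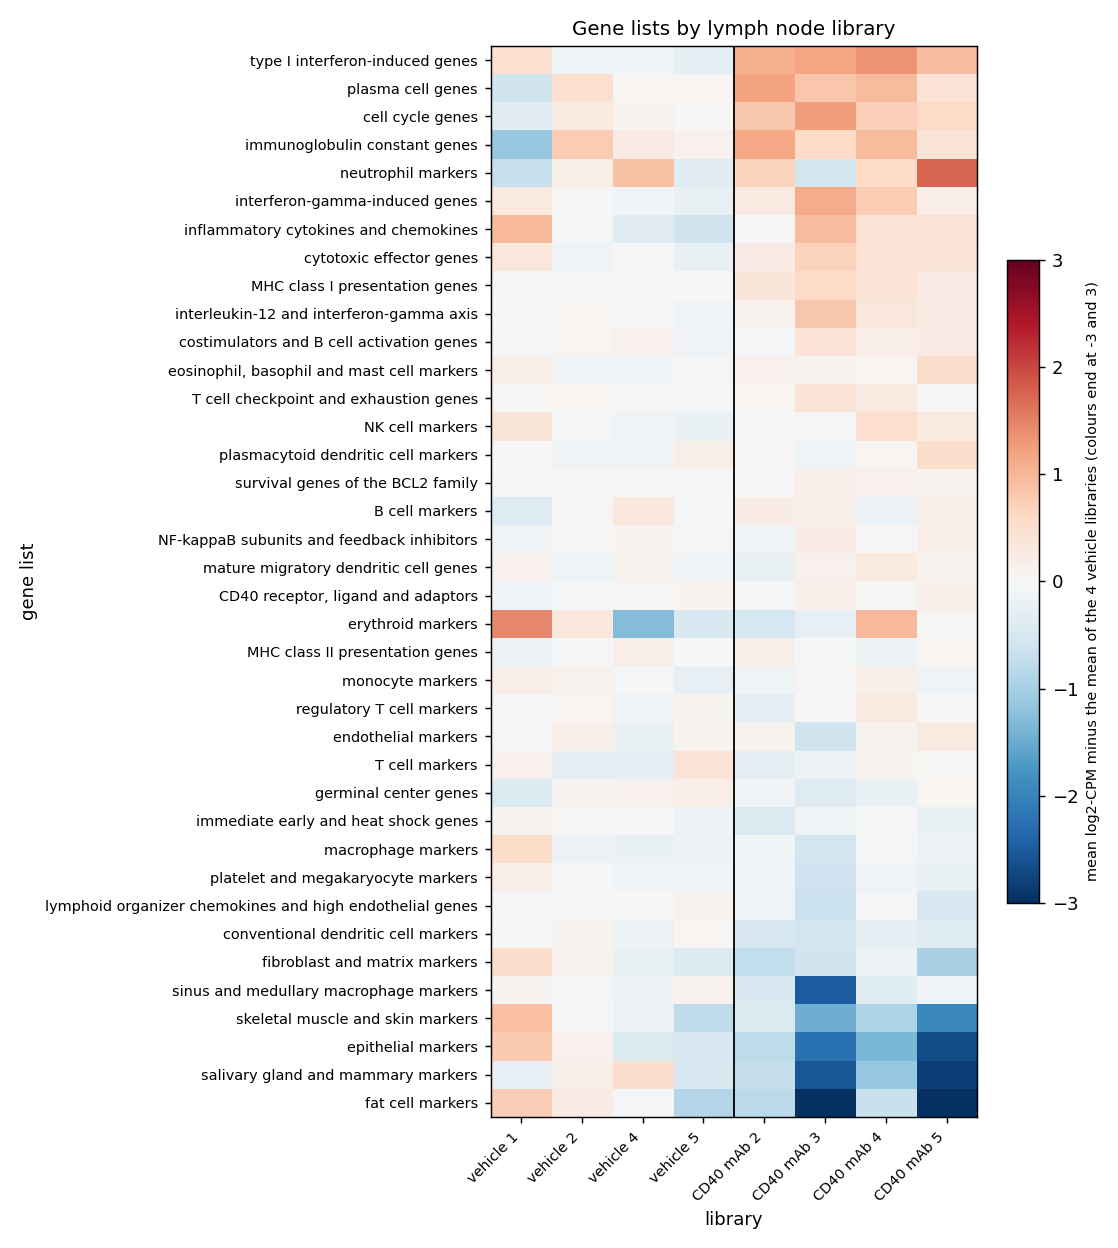
Mean log2-CPM of each gene list (rows) in each of the 8 libraries (columns), as the difference from the mean of the 4 vehicle libraries, in colour from blue (lower) to red (higher), with colours ending at -3 and 3. The type I interferon row is red in all 4 CD40 mAb columns, and the fat cell row is darkest blue in CD40 mAb 3 and 5.

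Lymphocyte identity genes differed by less than the spread between libraries. Of 21 T cell markers, 14 B cell markers, 10 NK cell markers and 9 regulatory T cell markers 0 passed the test. In these lists 1 gene, the B cell marker Ighm described above, had groups that do not overlap (8.27% of all genes above, 9.45% below). The medians were -0.14, -0.0036, 0.17 and 0.03. Cd3e, part of the T cell receptor, was at 83.9 to 148 CPM in vehicle and at 78.4 to 110 CPM in CD40 mAb (-0.15 ± 0.19, adjusted p = 0.632), and Cd8a, the coreceptor of cytotoxic T cells, had -0.18 ± 0.22 (adjusted p = 0.622). Foxp3, the transcription factor of regulatory T cells, was at 20.5, 27.5, 21.3 and 27.0 CPM against 16.5, 20.1, 22.5 and 20.9 CPM (-0.27 ± 0.11, adjusted p = 0.181). Of 19 cytotoxic effector genes 0 passed the test, 4 lay above every vehicle library (8.27% of all genes) and the median was 0.25. Cst7, an inhibitor of granule proteases, was at 31.1, 31.3, 33.7 and 32 CPM against 43.6, 54.8, 52.4 and 37.7 CPM (0.56 ± 0.13, adjusted p = 0.0571). Gzmk, a granzyme of memory CD8 T cells, was at 2.93, 2.78, 3.28 and 1.25 CPM against 7.75, 7.20, 7.17 and 4.93 CPM (1.40 ± 0.52, adjusted p = 0.144, and 0.0378 with the 8 libraries alone). Of 15 T cell checkpoint genes 0 passed the test, and the median was 0.076, or -0.012 without CD40 mAb 3. Of them 1 lay above and 1 below every vehicle library (8.27% and 9.45% of all genes). Their member above, Lag3, an inhibitory receptor of activated T cells, was at 17.6 to 19.6 CPM against 23.6 to 32.1 CPM (0.61 ± 0.16, adjusted p = 0.0685). The groups did not overlap in any of Cst7, Gzmk and Lag3.

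A stress-response gene passed the test. Gadd45g (ENSMUSG00000021453, chromosome 13, 51846678 to 51848468) was at 25.5, 20.3, 18.2 and 16.7 CPM in vehicle and at 11.9, 11.9, 12.9 and 9.70 CPM in CD40 mAb, and it fell by 0.80 on the log2 scale (SE 0.12, adjusted p = 0.0437). Of 19 immediate early and heat shock genes 0 passed the test, 4 log2 changes were above 0 and 15 below, and the median was -0.17. Of the 19, 0 lay above and 4 below every vehicle library (8.27% and 9.45% of all genes). Egr1, a transcription factor induced within minutes of receptor signals, was at 41.4 to 51.3 CPM against 26.6 to 36.6 CPM (-0.52 ± 0.14, adjusted p = 0.0766), and Egr2 of the same family had -0.49 ± 0.13 (adjusted p = 0.072). Of 16 genes of the BCL2 family, which sets cell survival, 0 passed the test, and the median was 0.15. Of them 2 lay above and 2 below every vehicle library (8.27% and 9.45% of all genes). The lowest p was that of the death promoter Bmf, at 31.6 to 37.3 CPM against 18.2 to 25.4 CPM (-0.58 ± 0.12, adjusted p = 0.054). Neither Egr1, Egr2 nor Bmf overlapped between the groups.

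Of the 23 lymphoid organizer and high endothelial genes, which shape the node and its entry vessels, 0 passed the test, and the median was -0.18. Of the 23, 1 lay above and 2 below every vehicle library (8.27% and 9.45% of all genes). Glycam1, the mucin ligand of L-selectin, was at 733 to 1040.1 CPM in vehicle and at 325, 156, 328 and 440 CPM in CD40 mAb (-1.55 ± 0.49, adjusted p = 0.109, and 0.0363 with the 8 libraries alone). Vcam1, an adhesion molecule of stroma and vessels, was at 142 to 180 CPM against 191 to 227 CPM (0.39 ± 0.10, adjusted p = 0.0666). The chemokine genes of the B and T cell zones overlapped: Cxcl13 had 0.29 ± 0.20 (adjusted p = 0.377) and Ccl21a had -0.31 ± 0.38 (adjusted p = 0.637).

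Fat cell genes had a median log2 change of -1.76 and varied from node to node. Adig, an adipocyte gene, was at 46.8, 30.8, 18.8 and 13.1 CPM in vehicle and at 5.88, 1.58, 8.64 and 0.601 CPM in CD40 mAb (-2.71 ± 1.57, adjusted p = 0.308). Retn, which encodes the hormone resistin, was at 229, 178, 118 and 76.8 CPM against 40.0, 9.10, 54.7 and 3.34 CPM (-2.49 ± 1.58, adjusted p = 0.346). Lipe, hormone-sensitive lipase, was at 141, 134, 95.4 and 66.0 CPM against 64.7, 39.0, 78.6 and 28.3 CPM, with groups that overlap (-1.05 ± 0.52, adjusted p = 0.237), and Pnpla2, the lipase before it in the same pathway, had -0.88 ± 0.42 (adjusted p = 0.223). Of 12 epithelial markers 0 passed the test and 4 lay below every vehicle library (9.45% of all genes), with a median of -1.90. The 4 salivary gland and mammary markers that could be tested had a median of -1.99, with 0 called. With the fat cell covariate 14 genes were called, 8 of them among the 12, and with CD40 mAb 3 and 5 left out 3 were called, 1 of them (Cd209a) among the 12.

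Set directly against the lymph nodes of ATOR-4066, the CD40 mAb nodes differed in 3 of 18671 genes (0.0161%). Cd209a was at 5.58, 5.01, 3.10, 7.84 and 6.50 CPM in the 5 ATOR-4066 libraries, all above the CD40 mAb libraries, and was lower in CD40 mAb by 3.19 on the log2 scale (log2 change -3.19, adjusted p = 0.0381). Igkv2-137 was at 5.28, 13, 5.90, 4.17 and 8.96 CPM in ATOR-4066, all below the CD40 mAb libraries (2.37 ± 0.31, adjusted p = 0.0381). Gbp2b, a guanylate-binding protein gene named after its values were seen, was at 4.01, 7.02, 6.67, 9.42 and 5.49 CPM in ATOR-4066, at 10.8 to 12.9 CPM in vehicle and at 12.9 to 24.1 CPM in CD40 mAb (1.64 ± 0.22 against ATOR-4066, adjusted p = 0.0381). In Gbp2b the ATOR-4066 libraries lay below both other groups. Of these 3 calls none was left without CD40 mAb 2, CD40 mAb 4, ATOR-4066 1 or ATOR-4066 5, and 1 was left without CD40 mAb 3, CD40 mAb 5, ATOR-4066 2 or ATOR-4066 3.

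Neither Irf7 nor the MHC class I genes passed this direct test. Irf7 was at 135 to 257 CPM in ATOR-4066, below every CD40 mAb library (1.07 ± 0.23, adjusted p = 0.198), and H2-Q6 was at 315 to 383 CPM, also below every CD40 mAb library (0.41 ± 0.06, adjusted p = 0.0881). Mki67 was at 160 to 249.7 CPM and overlapped with CD40 mAb (0.42 ± 0.17, adjusted p = 0.452). Against the same vehicle libraries, which both comparisons share, ATOR-4066 gave 0 called genes and 2954 at an unadjusted p under 0.05 in the edgeR test. The list medians of CD40 mAb and of ATOR-4066 against vehicle were 1.06 and 0.76 for type I interferon-induced genes, 0.35 and 0.15 for MHC class I presentation, and 0.83 and 0.31 for cell cycle genes. They were 0.82 and 0.84 for plasma cell genes, and -1.76 and -1.77 for fat cell markers. Whether the list medians differ between the drugs was not tested.

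**Figure D4:**
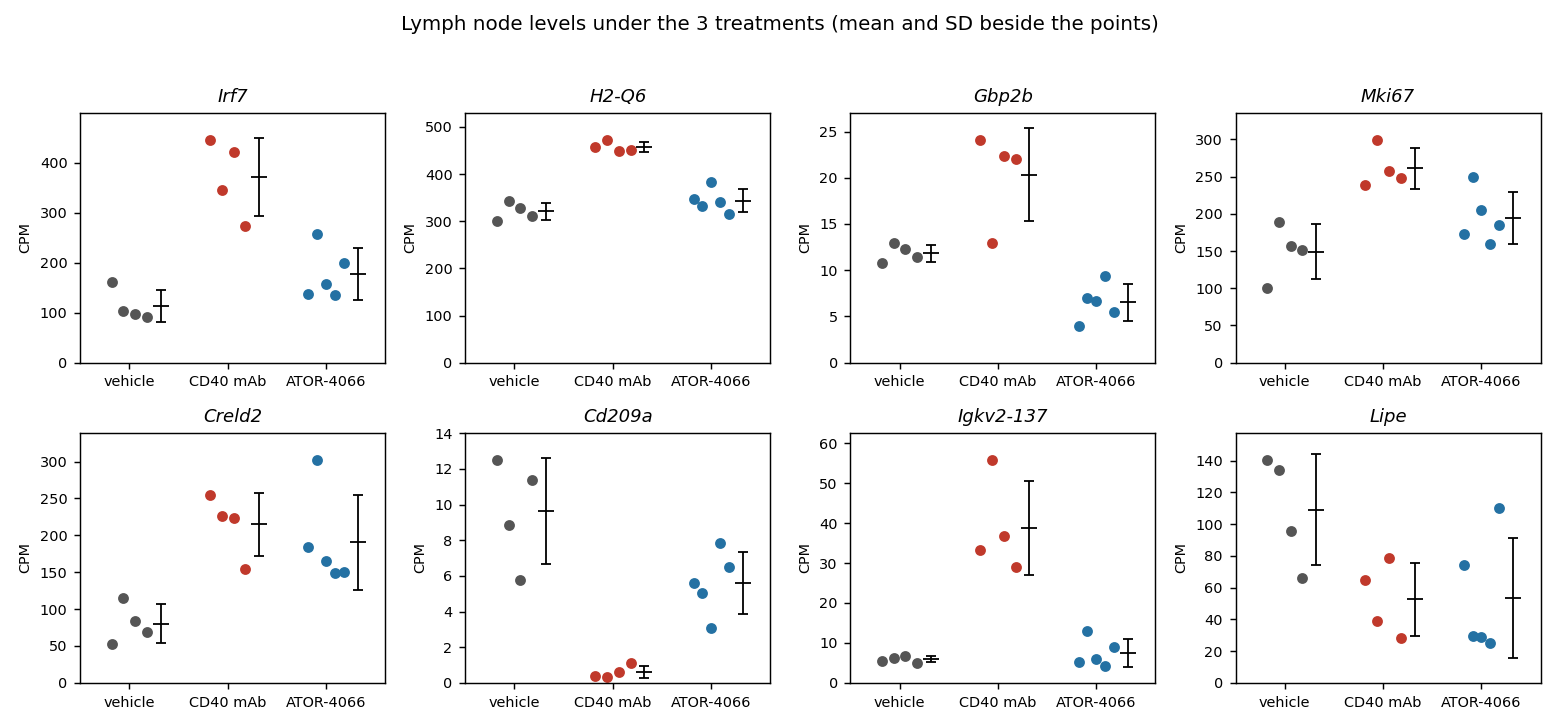
Level in CPM (vertical axes, from 0) of 8 genes in the lymph node libraries of vehicle (grey, n = 4), CD40 mAb (red, n = 4) and ATOR-4066 (blue, n = 5), with mean and SD beside the points. Cd209a is lowest and Igkv2-137 highest in CD40 mAb, Gbp2b is lowest in ATOR-4066, and Creld2 and Lipe of ATOR-4066 overlap with those of CD40 mAb.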

How the data were processed

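RNA was sequenced from lymph nodes, and the members and gene lists used here were chosen with earlier results of these data known. Per the labels' protocols, a stranded kit was used on polyA RNA. The deposited table holds the authors' expected counts per gene, estimated and merged by salmon (per the table's name), with no scaling for depth or length. Per the submitters' processing notes, STAR (version given as 5.1) and genome build GRCm38 were used. The annotation and settings were not given in the sources used here. Fractional values (11% of cells) were rounded. All 52 columns match a labelled sample, and 52029 of 57010 identifiers are in GENCODE vM21, the source of coordinates.

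The 13 lymph node libraries without vehicle 3 (46.3 to 138.5 M counts) were fitted together in edgeR 4.0.16 (R 4.3.3): filterByExpr (count minimum 10, total 15), TMM scaling and the robust quasi-likelihood F test, with Benjamini-Hochberg adjustment over all genes tested. Calls are at an adjusted p under 0.05, and unless another test is named every p is from this fit. Errors are SE for log2 changes and SD for CPM on TMM-scaled sizes. "Above every vehicle library" means that the 4 CPM values of each group do not overlap. The test was run on simulated counts with known changes, to check that their direction came out right. The simulated libraries did not differ in the tissue they held, so that run cannot show the error rate in these data. Libraries of a group differed by more than sampling noise (chi-square per degree of freedom of at least 50.2), so none was counted as a duplicate. Depth limits values that rest on few counts, such as those of Mrgprg in CD40 mAb and of Sct in vehicle.

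Genes were named by rule: called genes (average log2-CPM at least 1) but no predicted genes, pseudogenes or receptor segments (up to 15 higher and 10 lower), the 4 of smallest p in every list, and a set kept for every outcome. The text gives part of them, and some genes are not reported here. The rule for promoters selected no gene, so those shown were chosen after the values were seen. Alternatives were the 8 libraries alone, vehicle 3 included, DESeq2 1.42.0, relative log expression factors, no filter, voomLmFit of limma 3.58.1 with sample weights, the replicate number as a block, and each library left out. After the data were seen, a fat cell covariate, leaving out CD40 mAb 3 and 5, and leaving out ATOR-4066 5 were added.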

Additional observations from a re-analysis of the deposited data

Results flagged for a closer look

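Among 246 groups of 4 libraries (85 genes and 38 lists in vehicle and in CD40 mAb), 13 had 1 library far from the other 3 by Dixon's test at the 95% level. Chance alone sets apart about 1 in 20 such groups.

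Vehicle 1 and CD40 mAb 3 stood apart most often, 3 times each. Vehicle 1 had the highest Usp18, at 37.7 CPM against 28.9 to 30.2 in the other vehicle libraries, and the highest Adgre1, at 47.4 CPM against 20 to 23.9. The log2-CPM of its macrophage markers averaged 6.22, and 5.47 to 5.53 in the others. It also had the highest fat cell markers of the 8 libraries, and the part of these in its values was not tested.

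CD40 mAb 3 had the highest Il12rb1, at 24.2 CPM against 12 to 13.9 in the other CD40 mAb libraries. The log2-CPM of its sinus and medullary macrophage markers averaged 2.29 against 4.33 to 4.70, and that of its platelet and megakaryocyte markers 3.24 against 3.68 to 3.76. CD40 mAb 5 had the lowest Oas1a, at 55.8 CPM against 69.7 to 72.3, and the highest eosinophil, basophil and mast cell markers, at 1.91 against 1.45 to 1.51. CD40 mAb 4 was the CD40 mAb library with any Mrgprg, at 0.0213 CPM against 0 in the others.

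Vehicle 5 had the highest Ccl21a, at 833 CPM against 504 to 549, and the highest Cd209b, at 269 CPM against 144 to 158. Vehicle 4 had the highest Cd80, at 9.39 CPM against 8.39 to 8.56, and vehicle 2 the lowest Gbp9, at 87.6 CPM against 96.7 to 98.0. In Usp18, Oas1a, Gbp9, Adgre1 and Cd80 the groups did not overlap with these libraries included.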

How the results depend on the processing

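The number of genes called for CD40 mAb against vehicle, 12 in the fit reported, was 808 with the 8 libraries alone, 1026 with voomLmFit and sample weights, 1755 with DESeq2, 171 without the filter on low counts and 336 without ATOR-4066 5. It was 0 in edgeR with vehicle 3 included (3145 at an unadjusted p under 0.05), 3 without CD40 mAb 3 and 5, and between 0 and 18 with 1 of the 8 vehicle and CD40 mAb libraries left out. The share of calls that were higher was 75% as reported, 54.6% with the 8 libraries alone, 56.8% with DESeq2, 90.1% without the filter, and 50% of 14 calls with the fat cell covariate; relative log expression factors gave 8 calls and 75%. For CD40 mAb against ATOR-4066, with 3 calls as reported, the count was 0 with only those libraries fitted (1329 at an unadjusted p under 0.05), 0 with vehicle 3 included (496), 135 with DESeq2, and between 0 and 4 with 1 library left out. The cause of these shifts was not tested.

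The labels tie no replicate number to a shared animal, litter or day, so the libraries were not taken as paired. The correlations of same-numbered deviations were 0.11, -0.03 and 0.24, and those of different-numbered libraries ran from -0.19 to 0.16. So few pairs cannot decide whether the numbers mark pairs. With the replicate block 1 gene, Cd209a, was called against vehicle and 1 against ATOR-4066.

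Of 1530 gene values under alternatives 1241 kept direction and side of the threshold, 154 came to pass it, 105 no longer passed and 30 changed sign. Irf7 was called in 9 of 18 alternatives, H2-Q6 and H2-Q7 in 9, H2-T22 in 6, Ccr10 in 8 and Gadd45g in 5. All sign changes were in genes that were not called. With vehicle 3 included they were Itgax (-0.024), Cd44 (-0.23), Cd3e (0.18), Cd8a (0.15), Vcam1 (-0.43) and Ccl21a (0.039). With voomLmFit they were Il12b (-0.20), Cd3e (0.055), Cd8a (0.017) and Cd209b (-0.21), and with the replicate block Il12b (-0.13) and Cd209b (-0.19). With 1 library left out in turn, Siglec1 ranged from -0.049 to 0.78, Cd3e from -0.26 to 0.038, Il12b from -0.27 to 0.28, Relb from -0.041 to 0.11 and Cd209b from -0.57 to 0.40. Without CD40 mAb 3 and 5 Il12b was at -0.32, Relb at -0.067 and Cd209b at -0.028, and with the fat cell covariate Relb was at -0.043 and Cd209b at -0.22. Of 684 list medians 25 moved by more than the spread between libraries. The median of type I interferon-induced genes was 0.0041 with vehicle 3 included and between 0.98 and 1.21 in the other alternatives.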
